A study of Mus musculus with 6 samples.

Results

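The genes described here are 9 transcription factors that act in succession as mesoderm forms and becomes paraxial: Mixl1, Evx1, Mesp1, Mesp2, Msgn1, Tcf15, Meox1, Foxc1 and Foxc2. They were taken by gene symbol from the table of 55487 genes, and each symbol matched a single row. All 9 had enough reads to be tested, among 17315 tested genes. RNA was measured in 3 libraries labelled Ts1Cje and 3 labelled wild-type (WT), numbered by lot. The cells came from mouse embryonic stem cells established from Ts1Cje or wild-type mice. Both groups had been treated for 4 days with FGF2, BMP-4, activin A and VEGF, a protocol meant to give primitive macrophage progenitors. Ts1Cje is a Down syndrome model with an extra copy of the distal end of chromosome 16. The labels do not say whether lots are separate lines, clones or cultures, so each p-value reflects only how these lots varied, possibly for technical reasons.

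In the embryo, epiblast cells move through the primitive streak and leave it as mesoderm or endoderm. WNT, NODAL and BMP signals switch on streak genes first. Genes of nascent mesoderm follow, and cells that stay beside the midline then become presomitic mesoderm, which is cut into somites. Cells that leave the posterior streak early instead form extraembryonic and lateral mesoderm, the source of the first blood and vessels.

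No member lies in the triplicated segment. Tested genes of that segment (chromosome 16, 90225680 to 97962622) had a median log2 fold change of 0.48, or 1.39-fold, which matches the direction of the labels. Total counts ran from 16577065 to 19010856 per library. Libraries correlated at 0.986 to 0.987 within Ts1Cje, 0.980 to 0.989 within WT and 0.912 to 0.943 between genotypes. On the second principal component, with 8.31% of the variance, WT lot 1 stood apart at 39.4 from WT lots 2 and 3 at −9.83 and −23.7. For the members, values without single libraries are given where they change a call.

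Of the 9 factors, 6 were lower in Ts1Cje, 0 were higher and 3 did not pass edgeR's quasi-likelihood test at an adjusted p of 0.05. Among all tested genes 20.5% were lower, 23.3% were higher and 43.8% passed in either direction. The 9 factors were chosen with earlier results of these data known, so these shares describe them and do not test them. The median log2 fold change (Ts1Cje over WT) was −1.68 over the 9 factors and −0.01 over all tested genes. In 7 of the 9 every Ts1Cje library lay below every WT library, and in 0 of the 9 every one lay above. Among all tested genes 26.4% were lower and 28.8% higher in this way, or 55.2% together. The 6 that fell were Evx1, Mesp1, Mesp2, Msgn1, Meox1 and Foxc1. Mixl1, Tcf15 and Foxc2 did not pass. Without Ts1Cje lot 1 the number that fell was 3. It was also 3 when lots of equal number were treated as blocks, although the labels do not say that these belong together. In bulk RNA, fewer cells expressing a gene and less RNA per cell cannot be told apart.

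**Figure D1:**
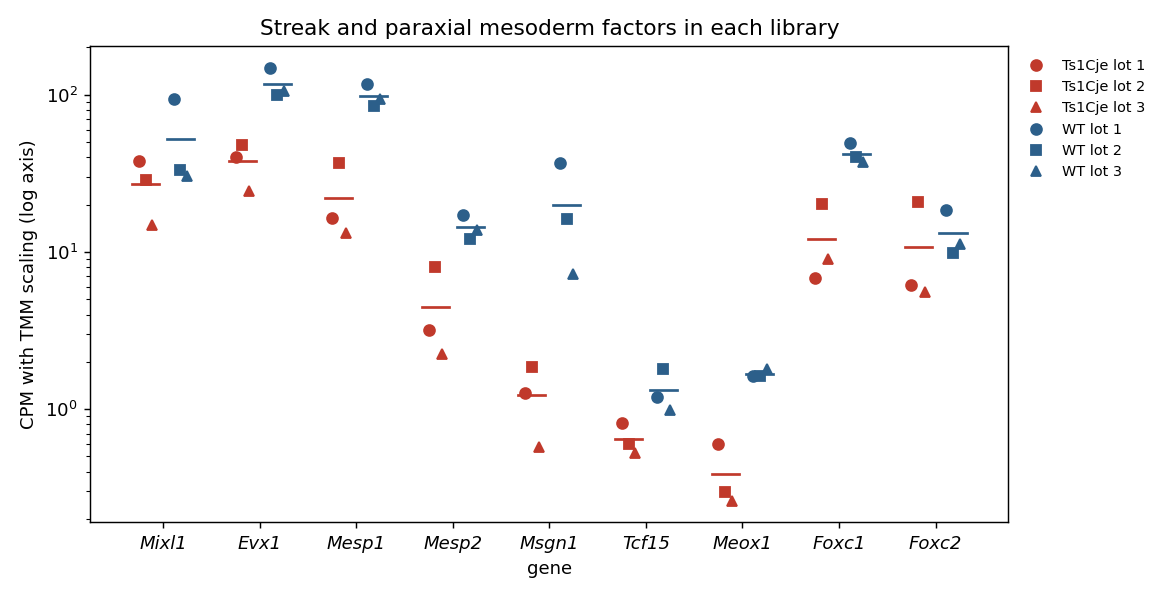
Level of each of the 9 factors (x axis) in CPM with TMM scaling on a log axis (y axis); each point is a library, with its lot given by the marker, and each line is the mean of a genotype. Ts1Cje and WT libraries separate for 7 genes and overlap for Mixl1 and Foxc2.

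Levels are CPM, read counts scaled to library size with TMM factors, unless TPM is named. Mixl1 (ENSMUSG00000026497; mm10, chromosome 1, 180693043 to 180697034, minus strand) encodes a homeodomain factor of the primitive streak that acts in mesoderm and endoderm formation. It had 38.0, 28.7 and 14.9 CPM in Ts1Cje lots 1 to 3, and 94.6, 33.1 and 30.4 CPM in WT lots 1 to 3. WT lot 1 was far above the other WT lots, and Ts1Cje lot 1 lay above both of those. Mixl1 had a log2 fold change of −0.96 ± 0.61 (SE), with an adjusted p of 0.269 by edgeR. Without WT lot 1 it was −0.23 (adjusted p = 0.703).

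Evx1 (ENSMUSG00000005503; chromosome 6, 52313498 to 52318378, plus strand), a homeobox gene of the posterior streak beside the HoxA cluster, fell. It had 40.4, 48.0 and 24.6 CPM in Ts1Cje, and 149, 99.2 and 105 CPM in WT. The lowest WT library was 2.07 times the highest Ts1Cje library. Its log2 fold change was −1.65 ± 0.29 (edgeR adjusted p = 0.00572). Evx1 stayed called in all 15 alternative analyses, with log2 fold changes from −1.86 to −1.42.

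Evx1os, an antisense transcript, shares 1335 bases with the Evx1 locus. Only 73 of them are exonic in both genes, or 2.54% of the exonic bases of Evx1. The library kit keeps strand, but whether the counting used it is not given in the sources used here. Evx1os had 19.5, 18.1 and 10.9 CPM in Ts1Cje and 71.8, 43.8 and 39.9 CPM in WT, and fell by 1.68 on the log2 scale (SE 0.31).

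Mesp1 and Mesp2 encode paired basic helix-loop-helix (bHLH) factors. Mesp1 marks mesoderm as it leaves the streak, including future heart cells, and Mesp2 sets segment borders in anterior presomitic mesoderm. The genes lie on chromosome 7 and point away from each other, with 16939 bases between their starts: Mesp1 (ENSMUSG00000030544) at 79792241 to 79793788 on the minus strand and Mesp2 (ENSMUSG00000030543) at 79810727 to 79813439 on the plus strand.

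The short stretches below hold letters of motifs named for factors known to act in the streak, found in the RefSeq promoter table (GRCm38.p6, 250 bases before to 50 after each start). All TCF/LEF, T-box and FOXH1 matches found for the members are shown, whatever the fold change, and capitals mark the motif letters. Evx1 and Foxc1 also fell and had promoter entries, but held no such match. The 30 bases with the TCF/LEF motif lie at chr7:79793603-79793632 (minus strand) for Mesp1 and at chr12:11209133-11209162 (minus strand) for Msgn1. The T-box stretch of Mesp1 lies at chr7:79793567-79793596 (minus strand) and the FOXH1 stretch of Mesp2 at chr7:79810740-79810769 (plus strand). In the deposited annotation Mesp1 starts farther upstream than in RefSeq, so both Mesp1 stretches lie inside the counted gene. The Mesp2 stretch lies just after the start of its gene. The Msgn1 stretch lies before the start of its gene in both annotations.
Mesp1 TCF/LEF: gctcgagccggCTTTGATatgctgatgaat
Msgn1 TCF/LEF: agatgctaattATCAAAGaggggaaagtga
Mesp1 T-box: aggggcccgctTCACACCtagggctcagga
Mesp2 FOXH1: cgaggggtcagAATCCACAcctctgcaaat
Of the 9 genes, 5 had an entry in the promoter table: Evx1, Mesp1, Mesp2, Msgn1 and Foxc1. On both strands, the TCF/LEF letters CTTTGAT were found in 2 of these 5 and in 3.73% of all 32841 promoters. The T-box letters GGTGTGA were in 1 of 5 and 3.98% of all, and the FOXH1 letters AATNCACA in 1 of 5 and 3.6% of all. The E-box letters CANNTG, read by bHLH factors, were in 4 of 5 and in 72.3% of all promoters. A match is a description of the letters and not of binding.

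Mesp1 had 16.5, 36.9 and 13.2 CPM in Ts1Cje and 117, 84.7 and 94.0 CPM in WT. The groups did not overlap, and Ts1Cje lot 2 was well above the other Ts1Cje lots. The log2 fold change was −2.16 ± 0.42 (edgeR adjusted p = 0.0106), a level 4.46 times higher in WT. The call was lost without Ts1Cje lot 1 (adjusted p = 0.0504) and when lots of equal number were treated as blocks.

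Mesp2 was the less abundant of the pair, at 3.18, 8.04 and 2.26 CPM in Ts1Cje and 17.2, 12.1 and 13.7 CPM in WT. Ts1Cje lot 2 was again the highest of its group and still below every WT lot. Mesp2 fell, with a log2 fold change of −1.68 ± 0.44 (edgeR adjusted p = 0.018), and of −2.40 without Ts1Cje lot 2 (adjusted p = 0.000149). It did not pass without Ts1Cje lot 1 (adjusted p = 0.0748) or WT lot 1 (adjusted p = 0.0569). Nor did Mesp2 pass when lots of equal number were treated as blocks.

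Measured as TPM, which is per length, Mesp1 stood above Mesp2 in every library. The comparison of ratios within the Mesp and Foxc pairs was not planned beforehand. The TPM ratio of Mesp1 to Mesp2 was 7.91, 6.99 and 8.94 in Ts1Cje and 10.4, 10.7 and 10.5 in WT. It averaged 7.95 ± 0.973 in Ts1Cje and 10.5 ± 0.137 in WT (SD, n = 3 each), and the groups did not overlap. The log2 difference of this ratio was −0.41 (2-sided exact permutation test, p = 0.1, the smallest that 3 against 3 libraries allow).

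Msgn1 (ENSMUSG00000047002; chromosome 12, 11208360 to 11208972, minus strand), a bHLH factor that drives presomitic mesoderm, had the largest fold change of the 9. It had 1.26, 1.85 and 0.577 CPM in Ts1Cje (23, 31 and 11 reads) and 36.6, 16.3 and 7.24 CPM in WT. Both groups were widely spread, yet the lowest WT library was 3.92 times the highest Ts1Cje library. Msgn1 fell, with a log2 fold change of −4.04 ± 0.78 (edgeR adjusted p = 0.00907), a level 16.5 times higher in WT. Without WT lot 1 the log2 fold change was −3.28, and the gene still passed (adjusted p = 0.00117). It did not pass without Ts1Cje lot 1 (adjusted p = 0.0529), nor when tested by limma-voom (adjusted p = 0.0632).

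The upstream stretch of Msgn1 (RefSeq, GRCm38.p6, chr12:11208973-11209198, minus strand) is shown whole for the gene with the largest fold change. It is the part of the promoter window that lies before the start of the gene in both annotations, and capitals mark the TCF/LEF letters, read on the opposite strand.
Msgn1: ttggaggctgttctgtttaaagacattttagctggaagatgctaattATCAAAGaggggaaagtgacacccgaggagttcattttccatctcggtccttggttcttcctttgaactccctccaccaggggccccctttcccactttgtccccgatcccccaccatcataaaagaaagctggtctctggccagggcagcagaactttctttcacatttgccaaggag

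The somite factors were rare in both genotypes. Meox1 (ENSMUSG00000001493; chromosome 11, 101877510 to 101894374, minus strand), a homeobox gene of somites, had 11, 5 and 5 reads in Ts1Cje and 30, 30 and 33 reads in WT. In CPM this was 0.603, 0.298 and 0.262 in Ts1Cje and 1.62, 1.62 and 1.81 in WT. The WT lots were close together and all above Ts1Cje. The log2 fold change was −2.10 ± 0.41 (edgeR adjusted p = 0.00233), and the call held in all 14 alternatives in which the gene was tested (adjusted p 0.000176 to 0.0139). Meox1 passed the read filter through its WT libraries, as Ts1Cje lots 2 and 3 had 5 reads each. The call is thus that of a gene kept for the group where it is high. Meox1 was not tested at a mean log2 CPM of at least 1.

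Tcf15 (ENSMUSG00000068079; chromosome 2, 152143561 to 152149097, plus strand) encodes paraxis, a bHLH factor needed for somites to become epithelial. It had 15, 10 and 10 reads in Ts1Cje and 22, 33 and 18 reads in WT, or 0.822, 0.596 and 0.525 CPM in Ts1Cje and 1.19, 1.79 and 0.987 CPM in WT. The groups did not overlap. The log2 fold change was −1.02 ± 0.40 and did not pass (edgeR adjusted p = 0.0602). It passed with limma-trend on log2(TPM + 1) (adjusted p = 0.0306) and on log2(TPM + 0.1) (adjusted p = 0.0312).

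Foxc1 and Foxc2 encode forkhead factors with overlapping roles in paraxial mesoderm and in vessels. Foxc1 (ENSMUSG00000050295; chromosome 13, 31806633 to 31812476, plus strand) had 6.85, 20.3 and 9.08 CPM in Ts1Cje and 49.1, 40.3 and 37.2 CPM in WT. Ts1Cje lot 2 was the highest of its group, and all 3 lay below WT. Foxc1 fell, with a log2 fold change of −1.81 ± 0.41 (edgeR adjusted p = 0.0152), and of −2.40 without Ts1Cje lot 2 (adjusted p = 2.75e-05). It did not pass without Ts1Cje lot 3 (adjusted p = 0.0595), without WT lot 1 (adjusted p = 0.0553) or with no filter on low counts (adjusted p = 0.0713). Nor did Foxc1 pass when lots of equal number were treated as blocks.

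Foxc2 (ENSMUSG00000046714; chromosome 8, 121116171 to 121118895, plus strand) had 6.14, 20.8 and 5.56 CPM in Ts1Cje and 18.5, 9.85 and 11.3 CPM in WT. Ts1Cje lot 2 was above all WT lots, and the other Ts1Cje lots were below them. The log2 fold change was −0.30 ± 0.59 (edgeR adjusted p = 0.721). Without Ts1Cje lot 2 it was −1.18 and passed (adjusted p = 0.0125), and Foxc2 passed in no other alternative. Without Ts1Cje lot 3 or WT lot 1 the log2 fold change was 0.02.

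The TPM ratio of Foxc1 to Foxc2 was 0.52, 0.456 and 0.761 in Ts1Cje and 1.24, 1.91 and 1.53 in WT. Foxc2 was thus the more abundant of the pair per length in every Ts1Cje library, and Foxc1 in every WT library. The ratio averaged 0.579 ± 0.161 in Ts1Cje and 1.56 ± 0.336 in WT (SD, n = 3 each). The log2 difference was −1.44 (2-sided exact permutation test, p = 0.1, again the smallest possible). It ranged from −1.66 to −1.28 on leaving out single libraries, Ts1Cje lot 2 included. Like that of the Mesp pair, this comparison was not planned.

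**Figure D2:**
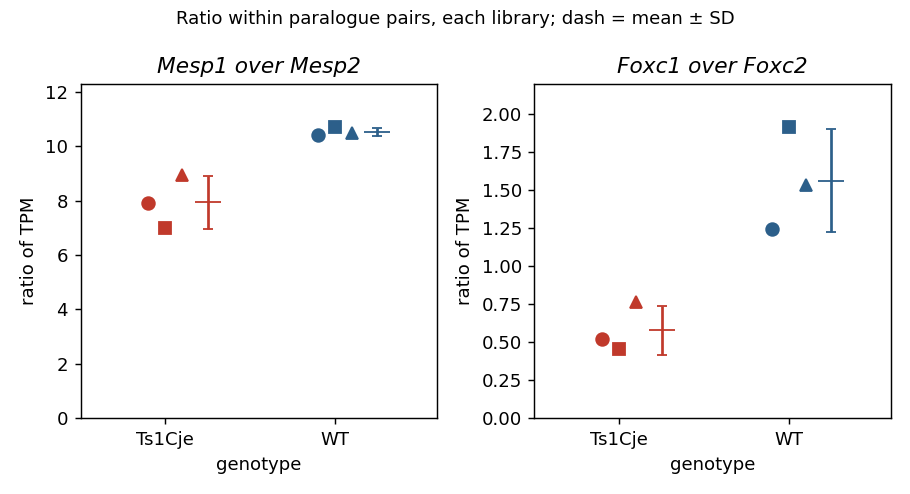
Ratio of TPM (y axis, linear from 0) of Mesp1 to Mesp2 and of Foxc1 to Foxc2 in each library, by genotype (x axis); dashes are means and bars SD over 3 libraries. In both pairs all Ts1Cje ratios lie below all WT ratios.

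By TPM, Mesp1 was the most abundant of the 9 in both genotypes, at 56.5 ± 33.3 TPM in Ts1Cje and 249 ± 46.0 TPM in WT (SD, n = 3 each). Its range in WT was above that of the next gene, Evx1, which was not so in Ts1Cje. In Ts1Cje the order continued with Evx1 (42.3 ± 13.7 TPM), Mixl1 (38.2 ± 16.2), Foxc2 (12.9 ± 10.5), Mesp2 (7.50 ± 5.29), Foxc1 (6.71 ± 4.09), Msgn1 (6.49 ± 3.41), Tcf15 (2.13 ± 0.491) and Meox1 (0.560 ± 0.264). In WT it continued with Evx1 (132 ± 33.4 TPM), Msgn1 (106 ± 81.4), Mixl1 (74.5 ± 52.8), Mesp2 (23.7 ± 4.68), Foxc1 (23.3 ± 3.92), Foxc2 (15.7 ± 5.79), Tcf15 (4.34 ± 1.39) and Meox1 (2.43 ± 0.105). Neighbours in these orders had ranges that overlapped, apart from Msgn1 and Tcf15 and from Tcf15 and Meox1 in Ts1Cje. In WT the exceptions were Mesp1 and Evx1, Mixl1 and Mesp2, Foxc2 and Tcf15, and Tcf15 and Meox1.

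The 9 TPM values summed to 165, 252 and 102 in Ts1Cje lots 1 to 3 and to 888, 519 and 485 in WT lots 1 to 3. The sum was thus lowest in Ts1Cje lot 3 and highest in WT lot 1.

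The spread between lots differed from gene to gene. Within WT, the highest lot was 5.05 times the lowest for Msgn1 and 3.11 times for Mixl1. Of tested genes with reads in every library (17130), 98.4% had a smaller WT ratio than Msgn1 and 95.3% a smaller one than Mixl1. The other 7 factors had WT ratios from 1.11 (Meox1) to 1.88 (Foxc2), beside a median of 1.24 over all those genes. WT lot 1 was the highest WT lot for 7 of the 9 factors, against 38.4% of all those genes, and not for Tcf15 or Meox1.

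Within Ts1Cje, 7 factors had a highest lot more than 2 times the lowest, against 10.01% of all genes with reads in every library. In WT this held for 2 factors and for 13.0% of those genes. The widest Ts1Cje ratios were 3.74 for Foxc2 and 3.57 for Mesp2. Those of Msgn1 (3.2) and Meox1 (2.3) rest on 11 to 31 and on 5 to 11 reads per library. Ts1Cje lot 2 was the highest for 6 factors, against 33.0% of all those genes, and Mixl1, Tcf15 and Meox1 were highest in lot 1. Lot 3 was the lowest for 8 factors, against 31.9%, and lot 1 for Foxc1.

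**Figure D3:**
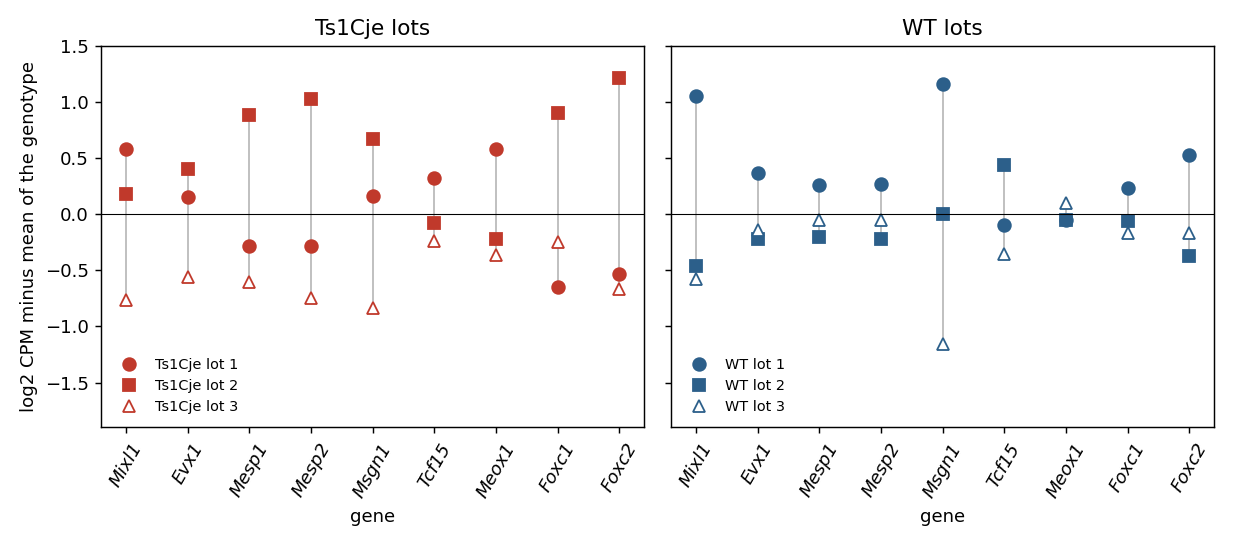
Deviation of each lot from the mean of its genotype (y axis, log2 CPM) for the 9 factors (x axis), Ts1Cje lots at left and WT lots at right; grey lines join the lowest and highest lot. Mesp1, Mesp2, Foxc1 and Foxc2 share a high Ts1Cje lot 2 (0.88 to 1.21 above the mean), while Mixl1 and Msgn1 share a high WT lot 1 (1.05 and 1.16 above).

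Other genes of the same steps were read from lists chosen by role, also with earlier results of these data known. Of 20 genes of streak signals and factors 19 were tested, 8 fell and 2 rose, with a median log2 fold change of 0.08. Foxh1, a NODAL pathway cofactor, fell (−1.19 ± 0.09), as did the growth factor gene Fgf8 (−0.45 ± 0.10) and Axin2, a feedback target of WNT (−1.67 ± 0.28). Gsc, a homeobox gene of the anterior streak and organizer, rose, with 28.9 ± 2.86 CPM in Ts1Cje and 4.11 ± 1.42 CPM in WT (2.81 ± 0.22; SD, n = 3 each). The number that rose was 9 without WT lot 1 and 1 without any single one of the other libraries. The number that fell was 4 without Ts1Cje lot 1 and 5 without Ts1Cje lot 3.

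T and Eomes are T-box genes of the streak, and Eomes is known to act upstream of Mesp1. T had 140, 165 and 113 CPM in Ts1Cje and 367, 173 and 159 CPM in WT (log2 fold change −0.74 ± 0.38, edgeR adjusted p = 0.183). Eomes had 244, 270 and 180 CPM in Ts1Cje and 166, 58.1 and 77.2 CPM in WT (1.20 ± 0.45, adjusted p = 0.0864). Neither passed. The Eomes libraries did not overlap, with Ts1Cje above WT, which is opposite in direction to those of Mesp1. Both genes were highest in lot 1 among WT libraries, as Mixl1 was.

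Of 15 genes of presomitic mesoderm and the segmentation clock 12 were tested, with a median log2 fold change of −1.36. In these, 5 fell and 0 rose (1 rose with no filter on low counts). On leaving out single libraries 5 to 7 fell. Rspo3, a secreted WNT enhancer (−2.46 ± 0.29), Notch1 (−1.40 ± 0.21), the WNT antagonist gene Nkd1 (−2.31 ± 0.33) and Aldh1a2, which makes retinoic acid (−4.55 ± 0.71), fell. Tbx6, a T-box gene of presomitic mesoderm, had 6.14, 10.9 and 4.67 CPM in Ts1Cje and 50.9, 19.2 and 9.65 CPM in WT (−1.88 ± 0.73, edgeR adjusted p = 0.0947). The Notch ligand gene Dll1, a known target of Msgn1, had 17.1, 31.7 and 15 CPM in Ts1Cje and 101, 34.0 and 17.0 CPM in WT (−1.26 ± 0.75, adjusted p = 0.244). Both overlapped between genotypes, and among WT lots both were ordered as Msgn1 was, with lot 1 highest and lot 3 lowest.

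Of 16 genes of somites and their derivatives only 8 were tested, of which 3 fell and 2 rose (median −0.68). The bHLH gene Twist1 (−2.23 ± 0.35) and Pax3, a factor of somite and neural fold (−2.48 ± 0.53), fell. Eya1, a transcriptional cofactor gene of kidney and muscle formation, rose (1.64 ± 0.22). Pax3 had only 0.244 ± 0.101 CPM in Ts1Cje and 1.37 ± 0.589 CPM in WT (SD, n = 3 each).

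**Figure D4:**
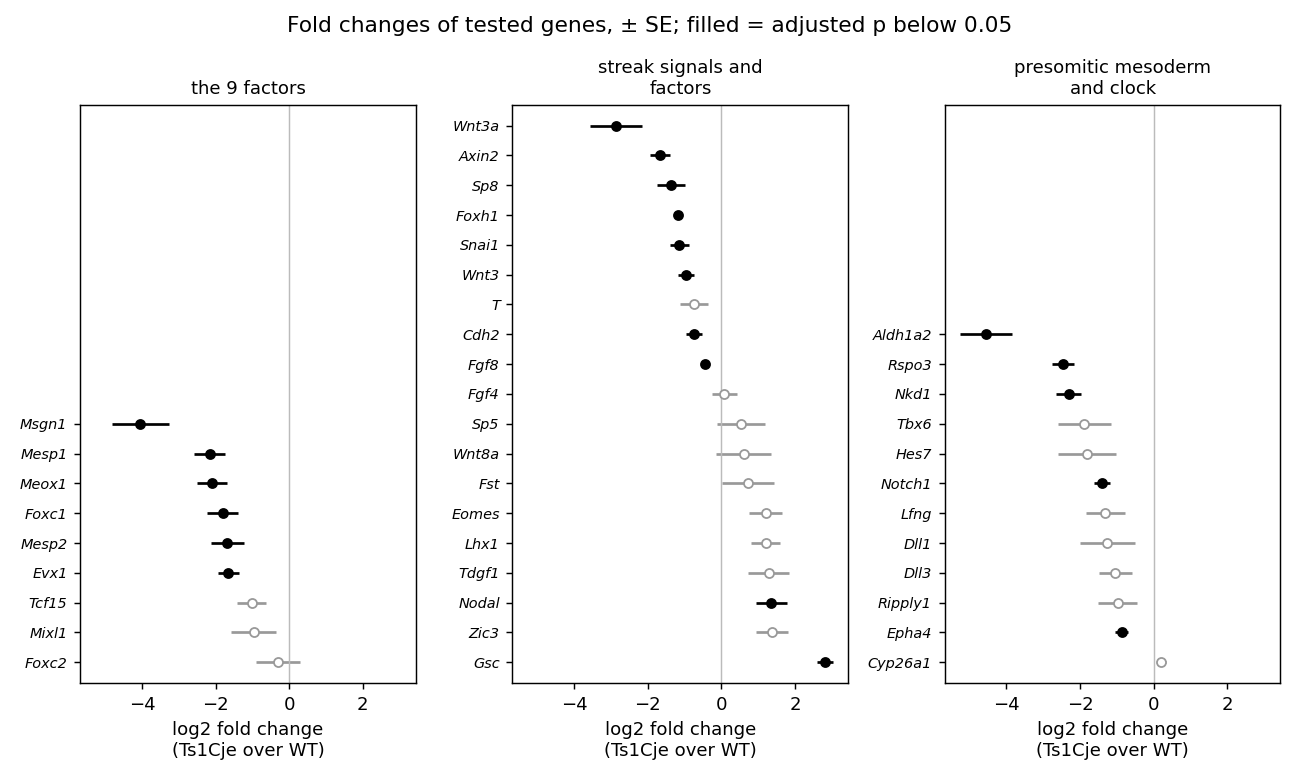
Log2 fold change, Ts1Cje over WT (x axis), with SE bars for tested genes (rows) of the 9 factors and of the streak and presomitic lists; filled points passed edgeR's test at an adjusted p of 0.05. The 9 factors all lie at or left of −0.30, while the list of streak genes spreads to both sides of 0.

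Marker lists of other cell types, chosen in the same way, also differed between genotypes, some downward, as 6 of the 9 factors did, and some upward. All 13 genes of lateral and extraembryonic mesoderm fell (median log2 fold change −3.26), and their summed TPM was 89.5 to 177 in Ts1Cje and 1550 to 2240 in WT. The smallest adjusted p-values were those of Prrx1, Msx2, Bmper and Prrx2. Of 15 vessel and blood genes 12 were tested, 8 fell and 2 rose, with summed TPM of 60.3 to 124 in Ts1Cje and 469 to 503 in WT; the leukocyte gene Ptprc had 0 counts in all libraries. Fli1, Gata2, Lmo2 and Cdh5 led that list, and all of them fell. The 2 that rose were Gata1 (2.78 ± 0.47) and Runx1 (1.80 ± 0.29), and Runx1 lies in the triplicated segment.

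All 15 endoderm genes rose, among them Sox17, Hnf4a and Foxa2. Their summed TPM was 2030 to 2560 in Ts1Cje and 311 to 420 in WT. Without Ts1Cje lot 3 or any single WT lot, 14 rose. Of 15 pluripotency and epiblast genes 13 rose and 0 fell, led by Tfcp2l1, Zfp42, Otx2 and Sox2, with summed TPM of 1610 to 2280 in Ts1Cje and 241 to 505 in WT. On leaving out single libraries 11 to 13 of these genes rose. WT lot 1 held the highest WT sum, 505, against 247 and 241 in WT lots 2 and 3. Neuroectoderm had 3 of 10 genes tested, of which Six3 rose and Lhx2 fell, while Nes, which did not pass (adjusted p = 0.368), made up most of the summed TPM. Without Nes the sum was 3.35, 6.80 and 10.2 TPM in Ts1Cje and 3.02, 2.62 and 3.42 TPM in WT, and the groups overlapped. Trophoblast had 5 of 8 tested, of which Krt7 and Ascl2 rose and Cdx2, also a gene of posterior mesoderm, fell. Its summed TPM was 18.7 to 35.2 in Ts1Cje and 247 to 364 in WT, and Cdx2 alone made up 94.0% to 97.1% of the WT sums. Without Cdx2 the sum was 14.3, 22.9 and 21.6 TPM in Ts1Cje and 14.9, 10.5 and 11.1 TPM in WT, and the groups overlapped. The part of these marker differences in the values of the 9 factors was not tested.

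Genes beside the factors were read within 100 kb. At Foxc2, the lateral mesoderm gene Foxf1 lies 28027 bases away and fell, with 8.71, 18.2 and 6.09 CPM in Ts1Cje and 131, 179 and 159 CPM in WT (−3.84 ± 0.42, edgeR adjusted p = 0.00125). The noncoding genes Fendrr (−4.47 ± 0.47) and Gm27530 (−3.82 ± 0.24) beside Foxf1 fell as well; Gm27530 lies within the bounds of Foxf1 on the other strand, so its reads are uncertain. Mthfsd, between Foxf1 and Foxc2, had a log2 fold change of 0.20 ± 0.12 and did not pass. At Evx1, Hoxa7 (−2.49 ± 0.74), Hoxaas3 (−3.89 ± 0.89) and Evx1os fell. In reads, Hoxa7 had 8, 6 and 13 in Ts1Cje and 23, 111 and 22 in WT. Hoxaas3 had 3, 5 and 5 reads in Ts1Cje and 34, 147 and 22 in WT. The fold changes of Hoxa7 and Hoxaas3 thus rest on few Ts1Cje reads and on WT lots far apart. Hoxa7 and Hoxaas3 overlap on opposite strands, and both were highest in WT lot 2. Hoxa9 had 2 counts in Ts1Cje and 139 in WT, a ratio of 68.1 (WT over Ts1Cje; 95% exact binomial interval 18.5 to 568, for counting error only). Beside the Mesp pair, Anpep, a membrane peptidase gene 8364 bases from Mesp2, fell by 1.91 on the log2 scale (SE 0.20). Pex11a, Ticrr, Kif7 and Ap3s2 fell by 0.25 to 0.64.

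**Figure D5:**
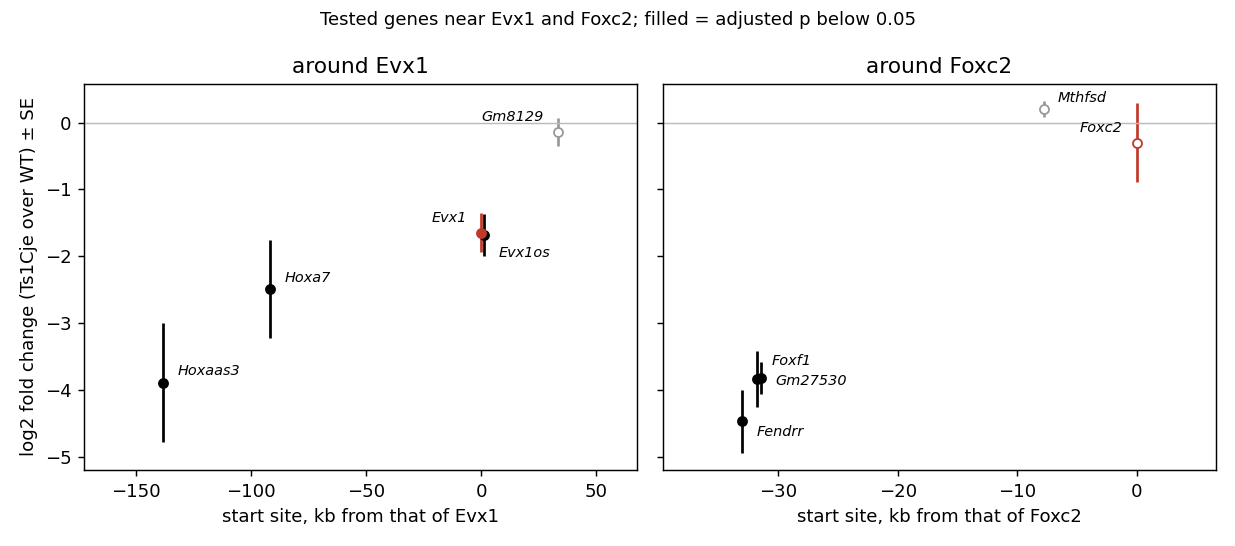
Log2 fold change with SE (y axis) against the distance of each start site from that of Evx1 or Foxc2 in kb (x axis), for tested genes with an edge within 100 kb; filled points passed at an adjusted p of 0.05, and Hoxa9 is left out because it had 2 counts in Ts1Cje. Foxf1 and its neighbours lie near −4, while Foxc2 and Mthfsd lie near 0.

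The genes most like each factor across the 6 libraries were found by the root mean square difference (RMS) of log2 CPM centred on the mean, among 10848 coding genes. Evx1 was matched most closely by Axin2, with an RMS of 0.04. Axin2 had 50.1, 61.6 and 32.3 CPM in Ts1Cje and 193, 133 and 131 CPM in WT, so the order of the lots within Ts1Cje was that of Evx1. Glis1 (0.12) and the fibronectin gene Fn1 (0.14) came next. Mesp1 was nearest to Zfp503 (0.14), Col13a1 (0.15) and Ifitm1 (0.16), and Mesp2 to Adra2a (0.17), Col14a1 (0.21) and Phlda2 (0.22). Between the members, Mesp1 and Mesp2 differed by an RMS of 0.24. Msgn1 was nearest to Gdf10 (0.27), Gbx2 (0.55) and S1pr3 (0.56).

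Foxc1 was nearest to Cap2 (0.18), Bves (0.22) and Adra2a (0.23). Foxc2 was nearest to Amhr2 (0.32), Irx1 (0.34) and Itga8 (0.38), and Mixl1 to Rel (0.29), Gna14 (0.29) and Nova1 (0.30). Meox1 was nearest to Nhsl2 (0.18), Ackr3 (0.21) and Adam23 (0.21). Tcf15 was nearest to the zinc finger genes Zfp30 (0.11), Zfp975 (0.14) and Zfp976 (0.14); such genes have similar copies, so their counts are uncertain. These matches describe the 6 libraries and share their genotype difference.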

How the data were processed

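Reads were handled with featureCounts 1.6.3, HISAT2 2.1.0, Trimmomatic 0.38 and FastQC 0.11.7 on mm10, per the submitters' processing notes. The sources used here do not give settings, counting strand or annotation. The authors deposited raw counts per Ensembl gene and TPM values in a separate table. All 9 members had the same coordinates in GENCODE vM21. In R 4.3.3, genes were kept by filterByExpr (at least 10 counts, total at least 15), scaled by TMM and tested by the robust quasi-likelihood test of edgeR 4.0.16 with no covariate. Benjamini-Hochberg adjustment ran over all tested genes, with a threshold of 0.05. Each SE is the size of the log2 fold change divided by the root of its F statistic. The code of the fit was also run on simulated counts, with the same relative spread beyond counting error for every gene. That run does not cover the wider spread or the few reads of some members, and no result here rests on it. Alternatives used DESeq2 1.42.0, limma 3.58.1, other scaling factors and filters, each library left out, and lot as a block. Members and gene lists were chosen with earlier results of these data known. Beside the members, the text names the 4 genes of smallest adjusted p in each list (a few are not reported here), T, Eomes, Tbx6, Dll1 and Pax3, the nearest 3 genes by profile, and called neighbours; Mthfsd, Gmds, Nes and Ptprc were added after their values were seen. Depth was 16577065 to 19010856 counts per library.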

Additional observations from a re-analysis of the deposited data

How the results depend on the processing

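The number of factors lower in Ts1Cje was 6 in the reported analysis and 5 to 7 with other scaling factors, filters, DESeq2, limma-voom and limma-trend. It was 3 to 7 on leaving out single libraries (3 without Ts1Cje lot 1: Evx1, Meox1 and Foxc1), and 0 factors were higher in any alternative. No factor changed direction except Foxc2, at 0.02 without Ts1Cje replicate 3 and 0.02 without WT replicate 1, against −1.18 without Ts1Cje replicate 2. With lot as a replicate block 3 factors were lower, and Mesp1 (adjusted p = 0.0659), Mesp2 (0.0536) and Foxc1 (0.0621) did not pass; deviations of equal lot numbers correlated at 0.0589 to 0.219, so the numbers were not taken to pair the samples, although all 6 libraries correlated best with their own number. Over all genes the block gave 4361 higher and 3965 lower, against 4032 and 3547. Streak list genes that rose numbered 2, against 1 with upper-quartile factors or no filter, 5 with DESeq2 or limma-voom, 4 at a mean log2 CPM of at least 1, 6 with either limma-trend fit and 1 to 9 on leaving out single libraries; those that fell numbered 4 to 8 on leaving out single libraries. With no filter 1 presomitic gene rose, and 1 somite gene fell at a mean log2 CPM of at least 1. Neuroectoderm genes that rose numbered 2 with no filter or the replicate block and 1 to 3 on leaving out single libraries; those that fell numbered 0 with DESeq2, no filter or the stricter filter, and 0 to 1 on leaving out single libraries. At this depth Meox1 and Tcf15 rest on 5 to 33 reads per library, and Msgn1 on 11 to 31 reads per Ts1Cje library.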

Other observations

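Other factors also had called genes within 100 kb. Near Mixl1, the genes Parp1 (log2 fold change −0.27 ± 0.10) and Acbd3 (−0.34 ± 0.08) fell, and near Msgn1, Smc6 (−0.70 ± 0.13) and Gen1 (−0.37 ± 0.12) fell, by edgeR's quasi-likelihood test. Parp1 was near the threshold (edgeR adjusted p = 0.0475), and its libraries overlapped between genotypes. Beside Tcf15, the antioxidant gene Srxn1 rose, with 31.7 ± 5.92 CPM in Ts1Cje and 10.2 ± 3.10 CPM in WT (SD, n = 3 each; log2 fold change 1.63 ± 0.22). Beside Meox1, the phosphatase gene Dusp3 (1.21 ± 0.12) and the FGF-responsive ETS gene Etv4 (0.77 ± 0.18) rose, while Meox1 fell. The 1 tested neighbour of Foxc1, Gmds, had a log2 fold change of −0.05 ± 0.18 and did not pass.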
